A study of Rattus norvegicus with 18 samples.

Results

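The genes described here are those whose level in rat bladder mucosa was highest in spinal cord-injured rats given vehicle. They had a mean above 5 CPM (the count divided by the library total and multiplied by 1000000) in SCI-vehicle mucosa, and every SCI-vehicle mucosa library lay above all 6 Control and SCI-inosine mucosa libraries. The SCI-vehicle mean had to be at least 1.3 times each of the other means. In detrusor the Control and SCI-vehicle libraries had to overlap, and the Control means of the 2 tissues had to lie within 16-fold of each other after adding 0.5 CPM to each. The conditions chose 121 of 32754 genes listed (0.369%). Because these values chose the genes, their mucosa levels and the Control and SCI-vehicle detrusor overlap are a description and carry no test.

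The libraries came from wild-type male rats in 3 groups. SCI-vehicle and SCI-inosine rats had a complete transection of the thoracic spinal cord, and inosine at 225 mg/kg per day or its vehicle was injected intraperitoneally for 8 weeks. Control rats were uninjured and their treatment is labelled as none, so Control differed from SCI-vehicle both by the injury and by the injections. Each group gave 3 detrusor and 3 mucosa libraries, 18 in all and in a single labelled batch, and the labels do not say which libraries share a rat.

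The mucosa is the inner lining of the bladder, a urothelium that seals the wall against urine over a lamina propria of connective tissue, vessels and nerve endings. The detrusor is the smooth muscle layer that empties the bladder. After the cord is cut above the sacral level, voluntary voiding is lost and a spinal reflex takes its place, and the bladder wall enlarges and stiffens. Inosine is a purine nucleoside formed from adenosine and has been studied as a protective and growth-promoting agent for neurons. The files list genes by Ensembl rat identifier without gene names, so neither the function of the 121 genes nor the markers of either tissue could be looked up.

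Library totals ranged from 3255012 to 6810496 counts. SCI-vehicle detrusor replicate 1 stood apart, since 506 genes with over 50 CPM in Control mucosa and over 4 times their Control detrusor level lay a median of 21.4% of the way from Control detrusor to Control mucosa in it, against 1.89% in replicate 2, 1.23% in replicate 3 and 3.14% to 9.56% in the SCI-inosine detrusor libraries. SCI-inosine detrusor replicate 2 had counts on 14126 genes, and the other detrusor libraries on 16475 to 17842. Among the 15740 genes with over 1 CPM in at least 3 libraries, edgeR's quasi-likelihood test called 0 genes in mucosa for SCI-vehicle against Control (1611 at an unadjusted p under 0.05), 1 for SCI-inosine against SCI-vehicle (0.00635%) and 0 for SCI-inosine against Control (787 unadjusted), where DESeq2 called 80, 11 and 13 and the likelihood ratio test 103, 9 and 24.

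The number of chosen genes followed from each condition in turn. Of the 11897 genes over 5 CPM in SCI-vehicle mucosa, 465 (3.91%) had their lowest SCI-vehicle library above the highest of the other 6. The same separation, without a minimum level, held for 3.34% of the 15740 genes tested. The mean ratios left 154, the overlap in detrusor removed 29 of these, and the limit on the tissue means removed 4 more. Under the same mucosa conditions, 93 of 11805 genes (0.788%) had Control on top and 48 of 11858 (0.405%) had SCI-inosine on top, against 154 of 11897 (1.29%) with SCI-vehicle on top.

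That order depended on the scaling of the libraries. CPM values in SCI-vehicle mucosa were a little higher for genes in general, with a median log2 ratio of 0.07 to Control and 0.08 to SCI-inosine over the 11897 genes. With effective library sizes by TMM in place of the totals, SCI-vehicle was on top for 69 genes, Control for 92 and SCI-inosine for 56. With DESeq2 size factors the counts were 75, 89 and 55. The full rule chose 58 genes with TMM sizes, 57 of them among the 121, and 62 with DESeq2 size factors, 61 of them among the 121, and 55 of the 121 genes were chosen under all 3 scalings. The count also rested on single libraries. It was 197 without SCI-vehicle mucosa replicate 1, 554 without SCI-vehicle mucosa replicate 3 and 340 without SCI-inosine mucosa replicate 1, where by construction fewer libraries had to be separated, and from 96 to 146 without any other library that the rule uses.

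Together the 121 genes accounted for 3112 ± 308 CPM in Control mucosa, 4761 ± 558 in SCI-vehicle mucosa and 3287 ± 370 in SCI-inosine mucosa (mean ± SD, n = 3). The SCI-vehicle libraries held 4506, 5401 and 4377 CPM. The Control libraries held 3345, 2763 and 3229 CPM and the SCI-inosine libraries 3715, 3085 and 3062 CPM, so the highest library outside SCI-vehicle was SCI-inosine replicate 1. In these libraries of whole tissue, more cells of a type and more RNA per cell cannot be told apart. In detrusor the sums of CPM on the library totals were lower, at 1259 ± 157 CPM for Control, 1516 ± 380 CPM for SCI-vehicle and 1382 ± 169 CPM for SCI-inosine.

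**Figure D1:**
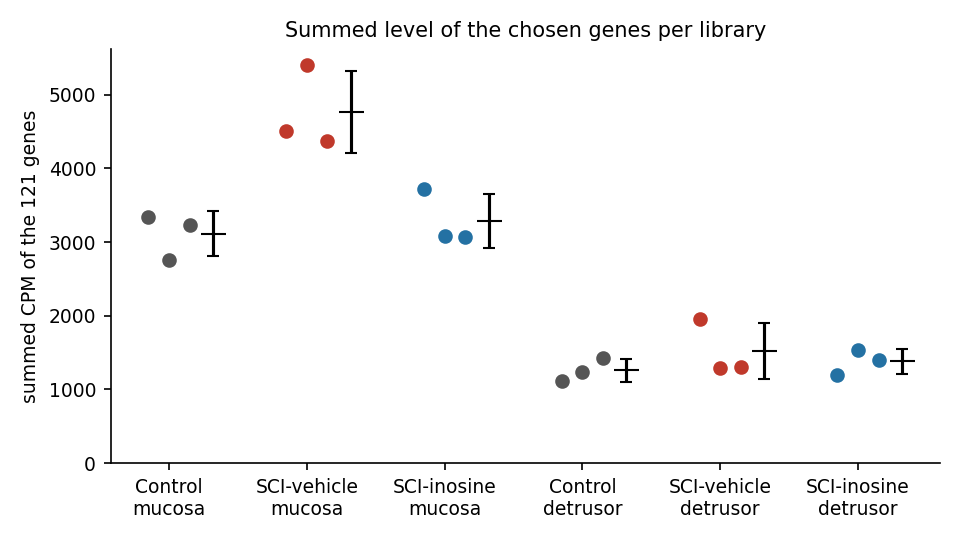
Summed CPM of the 121 genes (vertical axis) in each library, by tissue and group. Points are libraries, and the bar beside them is the mean with SD (n = 3). The 3 SCI-vehicle mucosa libraries, at 4377 CPM and above, lie over the other mucosa libraries as the choice of genes requires, and SCI-vehicle detrusor replicate 1, at 1954 CPM, lies above the other detrusor libraries.

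Within the groups the genes leaned to the same libraries. In SCI-vehicle mucosa 80 of the 121 genes (66.1%) were highest in replicate 2, against 43.7% of the genes over 5 CPM. In SCI-inosine mucosa 74 (61.2%) were highest in replicate 1, against 40.2%, and that library was the highest of the 6 others for 51 genes. The lowest SCI-vehicle library was replicate 3 for 61 genes, replicate 1 for 45 and replicate 2 for 15.

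Most of the genes cleared the other groups by little. The ratio of the lowest SCI-vehicle library to the highest other library had a median of 1.08 and reached 1.44. It was under 1.1 for 69 genes, from 1.1 to under 1.2 for 36 and from 1.2 upward for 16. The 3 genes just inside the condition had ratios of 1.004, 1.002 and 1.001 and the 3 just outside it 0.998, 0.997 and 0.997. A further 408 genes failed only that condition, 30 of them with a ratio above 0.95, and 268 failed only the 1.3-fold condition on the means.

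Counting error was of the size of these gaps for nearly all of the genes. The count behind the lowest SCI-vehicle library ranged from 14 to 1695 with a median of 63. Exact Poisson 95% intervals of the lowest SCI-vehicle library and the highest other library were separate for 2 of the 121 genes. When the counts of the 3 libraries of a group were summed, the SCI-vehicle interval lay above both others for 96 genes. These intervals cover counting error only and not the spread between rats. The same counts chose the genes, so the separation of the sums follows partly from the rule and carries no test.

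**Figure D2:**
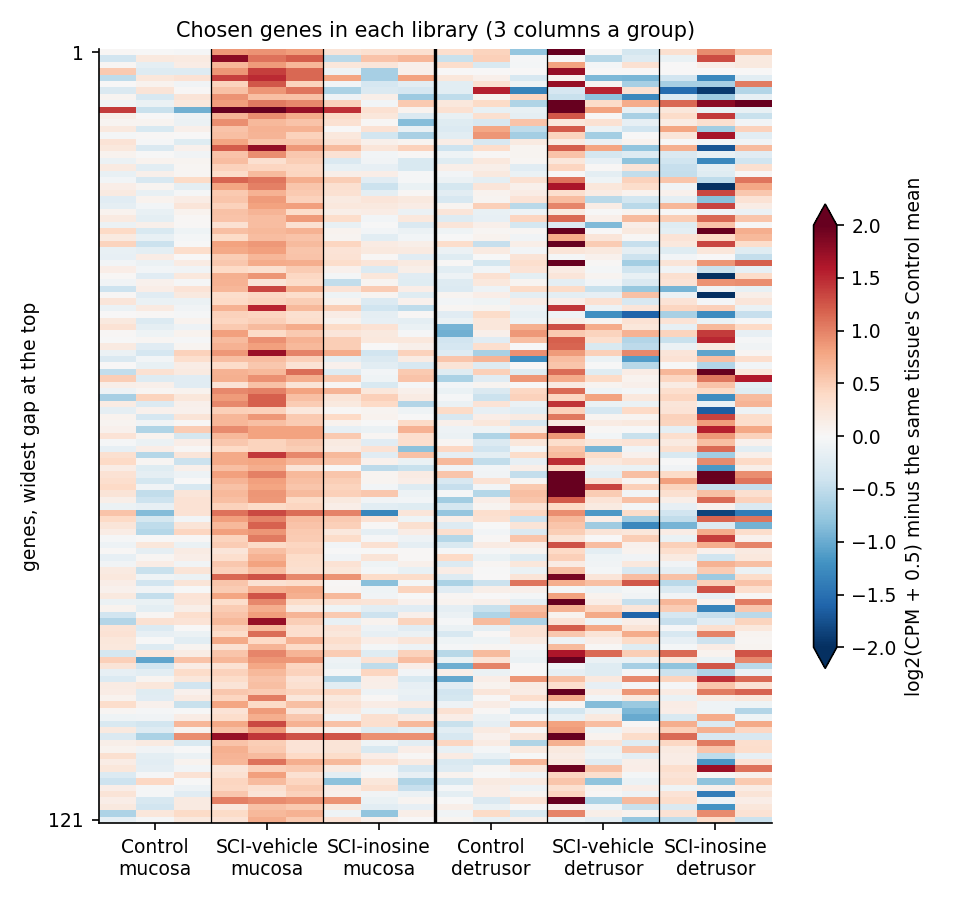
Each of the 121 genes (rows, ordered by the ratio of the lowest SCI-vehicle to the highest other mucosa library, widest at the top) in each of the 18 libraries (columns, 3 a group), as log2(CPM + 0.5) minus the Control mean of the same tissue. The colour scale ends at 2 in either direction. In detrusor the strong red column is SCI-vehicle replicate 1, where 98 of the genes were highest in their group.

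The differences in mean level were mostly under 2-fold. The mean SCI-vehicle level ranged from 5.07 to 472 CPM with a median of 17.8 CPM, and it was above 20 CPM for 50 genes and above 100 CPM for 8. SCI-vehicle over Control had a median ratio of 1.57 (at most 5.07), and 14 genes reached 2. SCI-vehicle over SCI-inosine had a median ratio of 1.47 (at most 3.61), 10 genes reached 2, and 8 reached 2 in both.

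SCI-inosine and Control mucosa could stand in either order, since the rule set both only below SCI-vehicle. As a share of the difference between the SCI-vehicle and Control means, the SCI-inosine mean lay a median of 92.5% of the way back to Control (range 45.6% to 159%). The rule kept only genes with SCI-inosine below SCI-vehicle, so a large share back follows partly from the choice of genes and carries no test. In the edgeR fit the SCI-inosine level was above Control for 80 genes and below for 41, where 50.5% of the 15740 genes tested were above. Every SCI-inosine library was above every Control library for 8 genes (4.21% of the genes tested) and below for 1 (6%). The libraries of both groups had a part in choosing the genes, so nothing is read from the difference to all genes. The median log2 fold change of SCI-inosine against Control over the 121 genes was 0.09, and over all genes tested it was 0.00. It became -0.03 without SCI-inosine mucosa replicate 1, the library in which 74 of the genes were highest in their group.

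**Figure D3:**
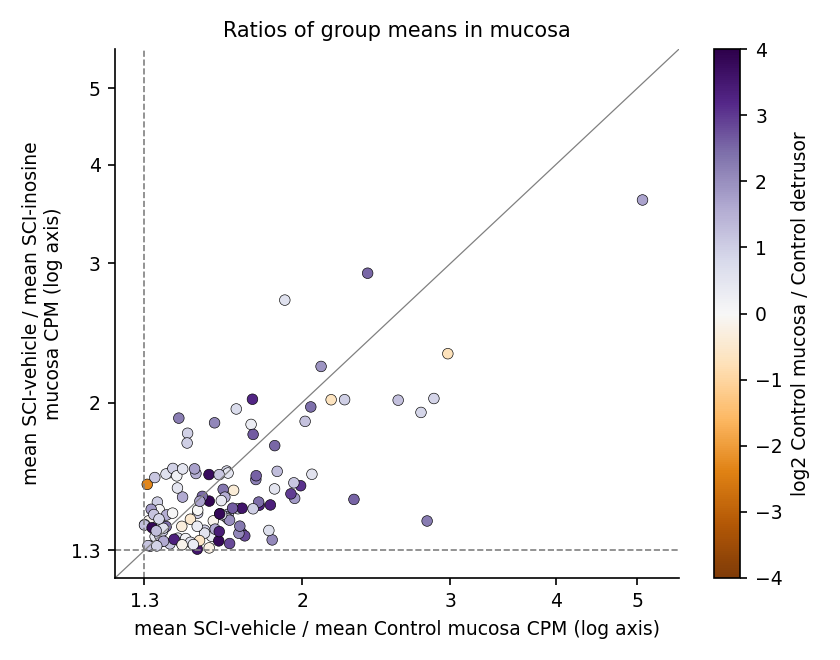
Ratio of the SCI-vehicle mean to the Control mean (horizontal, log axis) and to the SCI-inosine mean (vertical, log axis) in mucosa for each of the 121 genes. Dashed lines mark the 1.3-fold condition, the diagonal marks equal ratios, and colour gives the log2 ratio of Control mucosa to Control detrusor. Most points lie under 2 on both axes, and 1 gene reached 5.07 and 3.61.

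ENSRNOG00000033575 had the widest gap of the 121 genes. Its mucosa level was 36.9, 36.0 and 35.5 CPM in the Control libraries, 66.1, 67.6 and 65.2 CPM in SCI-vehicle, and 43.4, 45.2 and 45.4 CPM in SCI-inosine. The 3 groups did not overlap, each varied little, and the SCI-inosine libraries lay between the others. The mean SCI-vehicle level was 1.83 times the Control mean and 1.48 times the SCI-inosine mean, which lay 71.7% of the way back to Control. In detrusor it was a low-level gene, at 3.73, 4.06 and 1.46 CPM in Control and 3.67, 5.99 and 4.53 CPM in SCI-inosine. The SCI-vehicle detrusor libraries held 19.3, 2.85 and 2.13 CPM, so that replicate 1 alone stood above all other detrusor libraries.

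ENSRNOG00000023453 was the most abundant of the 121 genes. Its mucosa level was 395, 285 and 354 CPM in the Control libraries, 423, 545 and 447 CPM in SCI-vehicle, and 409, 333 and 318 CPM in SCI-inosine. The lowest SCI-vehicle library was 1.03 times the highest other library, SCI-inosine replicate 1. The mean SCI-vehicle level was 1.37 times the Control mean and 1.34 times the SCI-inosine mean. In detrusor it held 110, 115 and 110 CPM in the Control libraries, 173, 114 and 94.1 CPM in SCI-vehicle, and 109, 124 and 116 CPM in SCI-inosine, where again SCI-vehicle replicate 1 was the highest library and the groups overlapped.

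**Figure D4:**
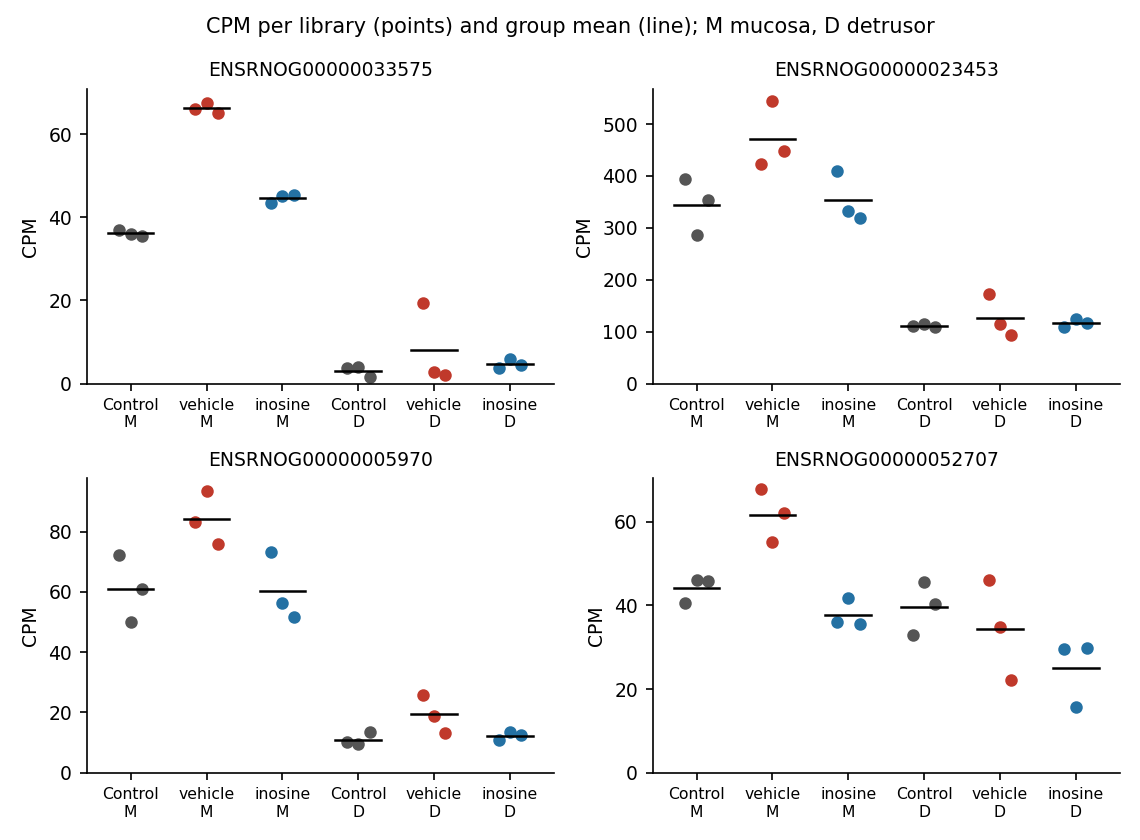
CPM of 4 of the 121 genes in each library (points) with the group mean (line), for mucosa (M) and detrusor (D) of Control, SCI-vehicle (vehicle) and SCI-inosine (inosine) rats. The gene with the widest gap is at the upper left and the most abundant one at the upper right. The lower pair had the smallest p in detrusor against SCI-vehicle (left) and against Control (right).

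Other genes are described by their values without an identifier. The gene with the highest mean ratios was at 3.22, 0.533 and 0.223 CPM in Control mucosa, 6.47, 9.45 and 4.22 CPM in SCI-vehicle, and 3.38, 1.23 and 0.972 CPM in SCI-inosine. Its ratios of 5.07 and 3.61 rested on 1 high library and a pair of low ones in each of the lower groups, and its lowest SCI-vehicle count was 16. The gene that kept most of its difference in SCI-inosine, 45.6% of the way back, was at 1.72, 1.24 and 4.69 CPM in the Control libraries, 8.62, 6.84 and 6.07 CPM in SCI-vehicle, and 5.98, 4.61 and 4.62 CPM in SCI-inosine mucosa. Both were low in detrusor, with Control means of 0.062 and 0.135 CPM.

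Among the next genes by abundance SCI-vehicle mucosa was highest, as the rule requires, and the genes at places 2 and 4 are given here. The gene at place 2 by level was at 301, 244 and 320 CPM in Control mucosa, 388, 585 and 336 CPM in SCI-vehicle, and 328, 290 and 255 CPM in SCI-inosine. The gene at place 4 by level had a wider gap, at 141, 135 and 129 CPM in the Control libraries, 202, 258 and 197 CPM in SCI-vehicle, and 165, 130 and 138 CPM in SCI-inosine. In both, SCI-vehicle replicate 2 and SCI-inosine replicate 1 were the highest of their groups, as each was, counted separately, for most of the 121 genes.

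In CPM on the library totals, most of the genes had a higher level in mucosa than in detrusor, although the rule allowed either order. In Control rats 109 of the 121 genes were higher in mucosa (90.1%), against 78.3% of the genes over 5 CPM within the same 16-fold limit. They were over 2-fold higher for 67 genes (55.4%, against 28.0%) and over 4-fold higher for 37 (30.6%, against 9.71%). The median ratio of Control mucosa to Control detrusor was 2.25, against 1.46. The 16-fold limit used the same Control means, so these shares carry no test. They also depend on the scaling. TMM factors were 0.769 to 0.834 in Control detrusor and 1.14 to 1.22 in Control mucosa. TMM library sizes would therefore lower mucosa relative to detrusor for every gene, and the shares were not counted on that scale. One gene was over 4-fold higher in detrusor, at 69.7, 80.3 and 229 CPM in Control detrusor and 27.0, 18.6 and 29.3 CPM in Control mucosa.

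Of the 18 libraries, only the SCI-inosine detrusor libraries had no part in choosing the genes. The Control and SCI-vehicle detrusor libraries they are compared with set the overlap condition, and the Control libraries also the 16-fold limit, so the shares of the 121 genes are set beside those of all genes as a description and nothing is read from the difference. All 121 genes passed the filter on low counts, which they could do through mucosa. Over 1 CPM in at least 3 of the 9 detrusor libraries was found for 108 of them, and for the other 13 the fitted fold changes in detrusor rest on few counts. In SCI-inosine against SCI-vehicle detrusor, edgeR's quasi-likelihood test called 0 of the 121 genes and 0 of the 15740 genes tested (0%). At an unadjusted p under 0.05, 1 gene was higher and 5 were lower, against 2.67% and 1.71% of the genes tested, and the smallest adjusted p among the 121 genes was 0.952. DESeq2 called 0 of the 121 genes (0.0635% of the genes tested) and had 6 at an unadjusted p under 0.05 (4.16%), and edgeR's likelihood ratio test called 0 (0.0445%) and had 9 (5.1%). Every SCI-inosine detrusor library was above every SCI-vehicle library for 2 genes (5.59% of the genes tested) and below for 4 (3.34%). Among the 108 genes, 0 were called and 5 were at an unadjusted p under 0.05 (4.63%, against 4.45% of the 13824 genes tested that passed the same limit).

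The direction in detrusor rested on 1 library. The fitted level was lower in SCI-inosine than in SCI-vehicle for 77 genes (54% of the genes tested were lower), with a median log2 fold change of -0.17 over the 121 genes and of -0.03 over all genes tested. Without SCI-vehicle detrusor replicate 1, the fitted level was lower for 47 genes and higher for 73 (49.8% and 49.7% of the genes tested), and the median became 0.18, against 0 over all genes tested. Over the 108 genes the median was -0.16 with that library, with 67 genes lower, and 0.09 without it, with 44 genes lower. The mean SCI-vehicle detrusor level was above both other detrusor means for 61 genes (50.4%, against 32.8% of the genes over 5 CPM), and without replicate 1 for 25 genes, where 23.4% of the genes over 5 CPM were above. The overlap condition removed genes whose SCI-vehicle detrusor libraries all lay above or all below Control, and the genes over 5 CPM were not under it. These shares and the weight of replicate 1 may follow partly from the choice of genes and carry no test.

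SCI-vehicle detrusor replicate 1 was the highest of its group for 98 of the 121 genes (81.0%, against 54.7% of the genes over 5 CPM). The overlap condition used the SCI-vehicle and Control detrusor libraries, and the genes over 5 CPM were not under it. The SCI-vehicle detrusor values given here are therefore a description and carry no test. The Control detrusor level enters both the tissue ratio and the difference of each library from it, so they are not independent. The excess in SCI-vehicle detrusor replicate 1 went with the tissue ratio of the gene. The 37 genes over 4-fold higher in Control mucosa lay a median of 1.74 log2 units above the Control detrusor mean in this library, while in replicates 2 and 3 the medians were 0.13 and 0.02. For the remaining 84 genes the medians were 0.39, -0.02 and -0.03. In SCI-inosine detrusor the 37 genes lay 0.31, 0.87 and 0.58 above the Control mean and the 84 genes -0.01, 0.01 and 0.09. Genes of high mucosa level that are not among the 121 also lay higher in the same library, and the part of mucosa RNA in these values was not tested.

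**Figure D5:**
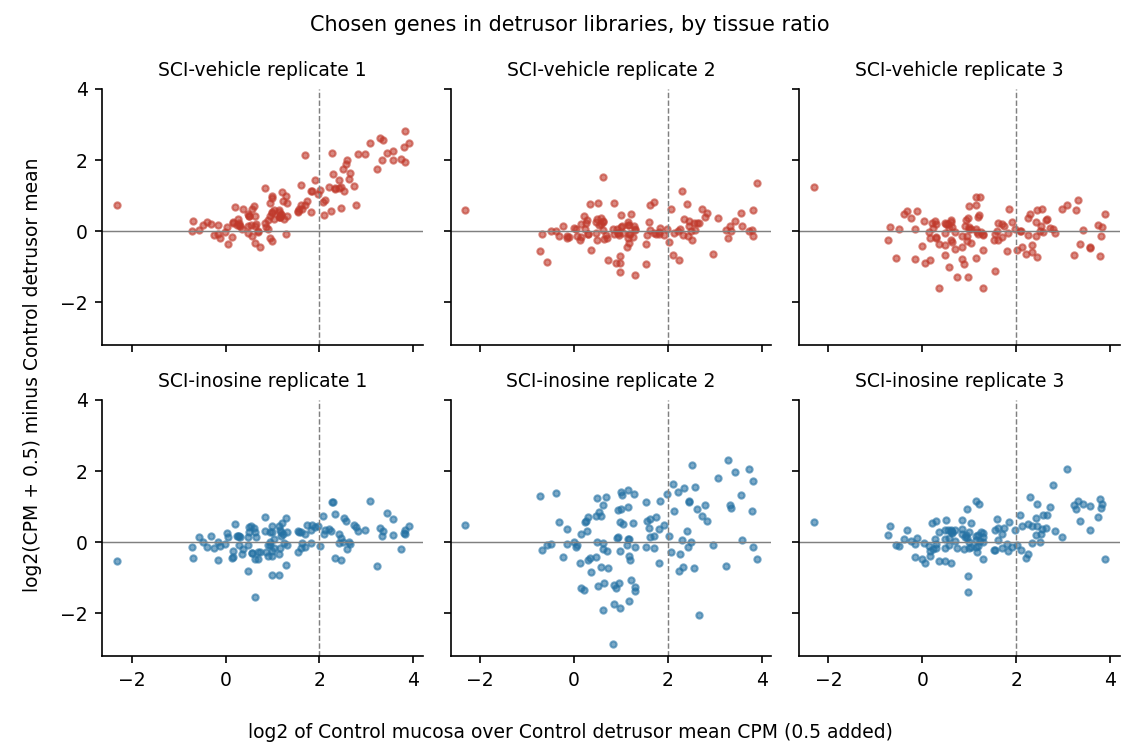
Each panel is 1 SCI-vehicle (upper) or SCI-inosine (lower) detrusor library, and each point is 1 of the 121 genes. In SCI-inosine replicate 2, 1 gene at -3.41 lies below the end of the vertical axis and is not shown. The horizontal axis is the log2 ratio of Control mucosa to Control detrusor (0.5 CPM added to each mean), the vertical axis is log2(CPM + 0.5) minus the Control detrusor mean, and the dashed line marks 4-fold. The Control detrusor level enters both axes. In SCI-vehicle replicate 1 the points climb with the tissue ratio, to a median of 1.74 beyond the dashed line, and in the other SCI-vehicle libraries the medians there are 0.13 and 0.02.

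The gene with the smallest p in SCI-inosine against SCI-vehicle detrusor was ENSRNOG00000005970. Its detrusor level was 10.1, 9.57 and 13.4 CPM in the Control libraries, 25.9, 19.0 and 13.1 CPM in SCI-vehicle, and 10.7, 13.7 and 12.6 CPM in SCI-inosine. The lowest SCI-vehicle library overlapped both other groups. The log2 fold change of SCI-inosine against SCI-vehicle was -0.69 ± 0.24 (SE), which did not pass edgeR's quasi-likelihood test (adjusted p = 0.952, 0.502 to 1 over the alternatives), and it was -0.49 without SCI-vehicle replicate 1. In mucosa the gene was at 72.3, 49.9 and 61.0 CPM in the Control libraries, 83.1, 93.5 and 76.0 CPM in SCI-vehicle, and 73.3, 56.2 and 51.7 CPM in SCI-inosine.

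In SCI-inosine against Control detrusor, edgeR's quasi-likelihood test called 0 of the 121 genes, against 46 of the 15740 genes tested (0.292%). At an unadjusted p under 0.05, 4 genes were higher and 3 were lower, against 7.78% and 5.85% of the genes tested. DESeq2 and the likelihood ratio test each called 0 of the 121 genes (2.22% and 2.1% of the genes tested) and had 7 at an unadjusted p under 0.05 (13.5% and 14.4%). Every SCI-inosine library was above every Control library for 11 genes (12.6% of the genes tested) and below for 3 (5.95%). Genes whose SCI-vehicle and Control detrusor libraries were separate had been removed by the rule, so a lower share than in all genes is no result about the 121 genes. Among the 108 genes over 1 CPM in detrusor, 0 were called, 7 were at an unadjusted p under 0.05, and the median log2 fold change was 0.07. The median log2 fold change was 0.08 over the 121 genes and -0.01 over all genes tested, with 0.63 for the 37 genes over 4-fold higher in Control mucosa and -0.06 for the other 84. The median over the 121 genes was 0.20 without Control detrusor replicate 3, and 0.029 and 0.047 without SCI-inosine detrusor replicates 1 and 2.

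ENSRNOG00000052707 had the smallest p in that comparison. Its detrusor level was 33.0, 45.6 and 40.2 CPM in the Control libraries, 46.0, 35.0 and 22.2 CPM in SCI-vehicle, and 29.5, 15.8 and 29.8 CPM in SCI-inosine. The SCI-inosine libraries lay below the Control libraries without overlap, and the SCI-vehicle libraries spread over both ranges. The log2 fold change of SCI-inosine against Control was -0.76 ± 0.28 (SE), which did not pass edgeR's quasi-likelihood test (adjusted p = 0.294, 0.124 to 0.596 over the alternatives). In mucosa the gene was at 40.5, 46.2 and 45.8 CPM in the Control libraries, 67.8, 55.1 and 62.0 CPM in SCI-vehicle, and 36.1, 41.8 and 35.5 CPM in SCI-inosine, a mean 1.63 times higher in SCI-vehicle than in SCI-inosine. Unlike ENSRNOG00000033575, its levels in the Control tissues were alike in CPM on the library totals, with mucosa 1.11 times detrusor.

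Within SCI-inosine detrusor, whose libraries the rule did not use, the median coefficient of variation was 35.8% over the 121 genes and 19.0% over the genes over 5 CPM in SCI-vehicle mucosa. Among those over 1 CPM in at least 3 detrusor libraries the medians were 32.3% and 18.7%. The genes compared were not matched on their detrusor level, and the part of level and depth in this difference was not tested. In SCI-inosine detrusor replicate 2, 16 of the 121 genes had no count, which allows up to 0.461 CPM (3 counts). A count in all 18 libraries was found for 101 of the genes.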

How the data were processed

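The authors deposited raw read counts per gene (32754 Ensembl rat identifiers, 18 libraries, no normalization). Per the labels and the study's methods, ribosomal RNA was depleted from total RNA, stranded libraries were sequenced as paired-end reads, and counts of both flow cells were added. The submitters' processing notes name Trim Galore 0.6.10, STAR 2.7.10a, SAMtools 1.17, featureCounts 2.0.3 and the build Rnor_6.0. All 18 columns were matched to samples by label (0 left unmatched), and every entry named a gene. Replicates are separate samples by label, and where rats were not named the p-values measure the spread between these samples.

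CPM used the deposited column totals. Genes over 1 CPM in at least 3 libraries (15740) were scaled by TMM and tested (two-sided) with the quasi-likelihood test of edgeR 4.0.16 in R 4.3.3, fitting the 9 libraries of a tissue together by group, with Benjamini-Hochberg adjustment over all genes tested and a threshold of 0.05. The SE given with a log2 fold change is the size of that change divided by the square root of the F statistic. The biological coefficient of variation was 26.5% in detrusor and 20.0% in mucosa. DESeq2 1.42.0 (its Wald test and size factors), the likelihood ratio test, other filters, other sets of libraries, other limits of the rule and leaving out each library were the alternatives. The scripts were tested on simulated data with larger changes than most of those described here. That test does not show whether changes of the size described here would be called.

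The genes and lists were chosen with earlier results of these data known. Genes to name were those with the widest gap, the highest level and the smallest p in the detrusor comparisons. Without gene names, at most 2 raised and 2 lower identifiers are printed. Genes given without identifier for extreme ratios were chosen after their values were seen. The files do not pair identifiers with names, so the planned gene lists, cell type markers and promoter motifs were not used here.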

Additional observations from a re-analysis of the deposited data

Results flagged for a closer look

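For 2 of the 121 genes every SCI-inosine library was below every SCI-vehicle library in mucosa, as the choice of genes requires, and above every SCI-vehicle library in detrusor. The difference between the tissues was not tested. The gene at place 59 in the order by gap held 7.47, 7.43 and 7.604 CPM in SCI-vehicle detrusor and 9.10, 12.1 and 8.49 CPM in SCI-inosine detrusor, a log2 fold change of 0.34 ± 0.27 (SE). The gene at place 37 held 1.97, 2.21 and 1.83 CPM in SCI-vehicle detrusor and 2.94, 4.76 and 4.90 CPM in SCI-inosine detrusor, a log2 fold change of 0.99 ± 0.42 (SE). Neither passed edgeR's quasi-likelihood test in detrusor (adjusted p = 0.952 for both), and 5.59% of all genes tested had every SCI-inosine detrusor library above every SCI-vehicle one.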

How the results depend on the processing

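The number of genes chosen was 58 with TMM library sizes and 62 with DESeq2 size factors, and it was 227, 39 and 8 with a minimum ratio of means of 1.2, 1.5 and 2. Leaving out each of 15 libraries in turn gave 96 to 554 genes. Under the mucosa conditions alone, SCI-vehicle was on top for 154 genes, Control for 93 and SCI-inosine for 48, and SCI-vehicle for 69 with TMM and 75 with DESeq2 size factors, 2 scalings that were added after seeing the data for this count. In detrusor, SCI-inosine against SCI-vehicle and against Control called 0 of the genes under every fit run, and 6 and 7 at an unadjusted threshold in the main fit. The unadjusted counts moved with the fit. They were 10 and 16 with all 18 libraries in one model, and 6 and 2 without Control detrusor replicate 2. Leaving out each detrusor library, the median log2 fold change ranged from -0.26 to 0.18 against SCI-vehicle and from 0.029 to 0.20 against Control. The 25 genes with SCI-vehicle detrusor above both other means without its replicate 1, against 61, are also an alternative added after seeing the data. Without that library the log2 fold change against SCI-vehicle became 0.80 for ENSRNOG00000033575 (lowest -1.20, without replicate 3) and 0.052 for ENSRNOG00000023453 (lowest -0.32, without replicate 3), and without Control detrusor replicate 2 that of ENSRNOG00000005970 against Control became -0.048 (highest 0.20, without Control replicate 3). Counting only the 108 genes over 1 CPM in at least 3 detrusor libraries, also added after seeing the data, gave medians of -0.16 and 0.07. The causes of these changes were not tested. Same-numbered libraries of different groups within a tissue had correlations from -0.256 to 0.463 in their deviations from the group means. Different-numbered libraries and the 2 tissues were not compared in this way, so whether the replicate numbers pair libraries was not tested. With the number as a replicate block, 0 genes were called and the medians were -0.16 and 0.05. The planned counts of gene lists were not run. Counting intervals of the lowest SCI-vehicle and highest other library were separate for 2 genes, and the part of depth in the gaps was not tested.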
